A study of Homo sapiens with 6 samples.

Results

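HMOX1 encodes heme oxygenase 1, the inducible enzyme that opens the heme ring and releases iron, carbon monoxide and biliverdin. It was studied here together with 9 other genes of heme and iron handling. Of these, BLVRA and BLVRB encode biliverdin reductases, FTH1 and FTL the ferritin chains, TFRC the transferrin receptor and NCOA4 the ferritin cargo receptor. IREB2 encodes an iron regulatory protein, BACH1 a heme-sensing repressor and FECH the last enzyme of heme synthesis. The 10 genes were found by symbol among 30230 genes in the deposited counts. HMOX1 was chosen by its fall in these same libraries, so its values are given as a description with no test. The other 9 genes were chosen by their roles next to it, with earlier results of these data known.

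The data were RNA-seq libraries of polyadenylated RNA from A549 cells, a human lung adenocarcinoma line that the labels call NSCLC cells. The control group (NC) and the group with silenced FSCN1 (siFSCN1) had 3 libraries each. FSCN1 encodes fascin, a protein that bundles actin filaments. According to the study's text, a single siRNA against FSCN1 was used for these libraries and the control was a scrambled siRNA, while the control label names a control plasmid. With 1 siRNA, the effect of losing FSCN1 and any other effect of that siRNA cannot be told apart.

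Heme oxygenase and its partners form a short route. The heme ring is opened by heme oxygenase, biliverdin is reduced to bilirubin by biliverdin reductase, and the freed iron is stored in ferritin, a shell of heavy (FTH1) and light (FTL) chains. Iron levels act on this route through 2 iron regulatory proteins, encoded by ACO1 and IREB2, which bind stem-loops called iron-responsive elements in the mRNAs of ferritin and of the transferrin receptor. Heme acts through BACH1, a repressor of HMOX1 and of both ferritin genes that loses its hold on DNA when it binds heme. The activator NRF2, encoded by NFE2L2, uses the same type of element. A549 cells are known for an inactivating change in KEAP1, the protein that marks NRF2 for degradation, and for high basal NRF2 activity.

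The 6 libraries held between 27967301 and 36560919 counts. FSCN1 was measured at 211.2, 219.7 and 212.1 CPM (counts relative to library size, scaled by TMM) in NC replicates 1 to 3 and at 18.2, 11.8 and 13.2 CPM in siFSCN1 replicates 1 to 3, so that 6.73% of the NC level remained. Of 17076 genes tested, 2820 were called changed, that is, they had an adjusted p under 0.05 in edgeR's quasi-likelihood test and at least a 2-fold change, 1991 of them higher and 829 lower. By that rule, 11.7% of all genes were called higher, 4.85% lower and 16.5% either way. At an adjusted p under 0.05 alone, 35.1% were higher and 33.2% lower. The CPM of NC and siFSCN1 did not overlap for 71.3% of genes. The epithelial markers KRT8 and KRT18 were abundant in every library, and the summed FPKM (fragment counts divided by gene length and by depth) of the 5 epithelial markers was 2607 to 3001 in NC and 1526 to 1854 in siFSCN1. The sum is almost all KRT8 and KRT18, which were lower in siFSCN1, as was KRT19, while the other 2 markers were higher. CDH1 was between 9.02 and 9.41 FPKM in NC and between 25.94 and 26.65 in siFSCN1, and EPCAM between 2.80 and 3.34 in NC and between 4.09 and 4.51 in siFSCN1. The leukocyte markers summed to 3.22 to 3.70 FPKM in NC and 4.12 to 5.15 in siFSCN1, most of it CD14, with PTPRC at 0.01 or below. The part of these marker changes in the results was not tested. Fibroblast, endothelial and erythroid markers summed to at most 0.41 FPKM in any library. HBA1 and ALAS2, defining genes of red cell precursors, had no FPKM value.

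Of the 9 genes other than HMOX1, IREB2 was called lower and none was called higher. At an adjusted p under 0.05 in edgeR, 2 were higher (BACH1 and FECH), 4 were lower (IREB2, FTL, FTH1 and BLVRB) and 3 did not pass (BLVRA, TFRC and NCOA4). The CPM of the groups did not overlap for 7 of the 9. These counts stand beside the 33.2% of all genes that were lower and the 71.3% that did not overlap. BLVRA, TFRC and NCOA4 passed under some other settings, given beside each gene. The median log2 fold change (siFSCN1 minus NC) was -0.17 over the 10 genes and -0.05 over the 9 without HMOX1, against 0.03 over all genes.

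**Figure D1:**
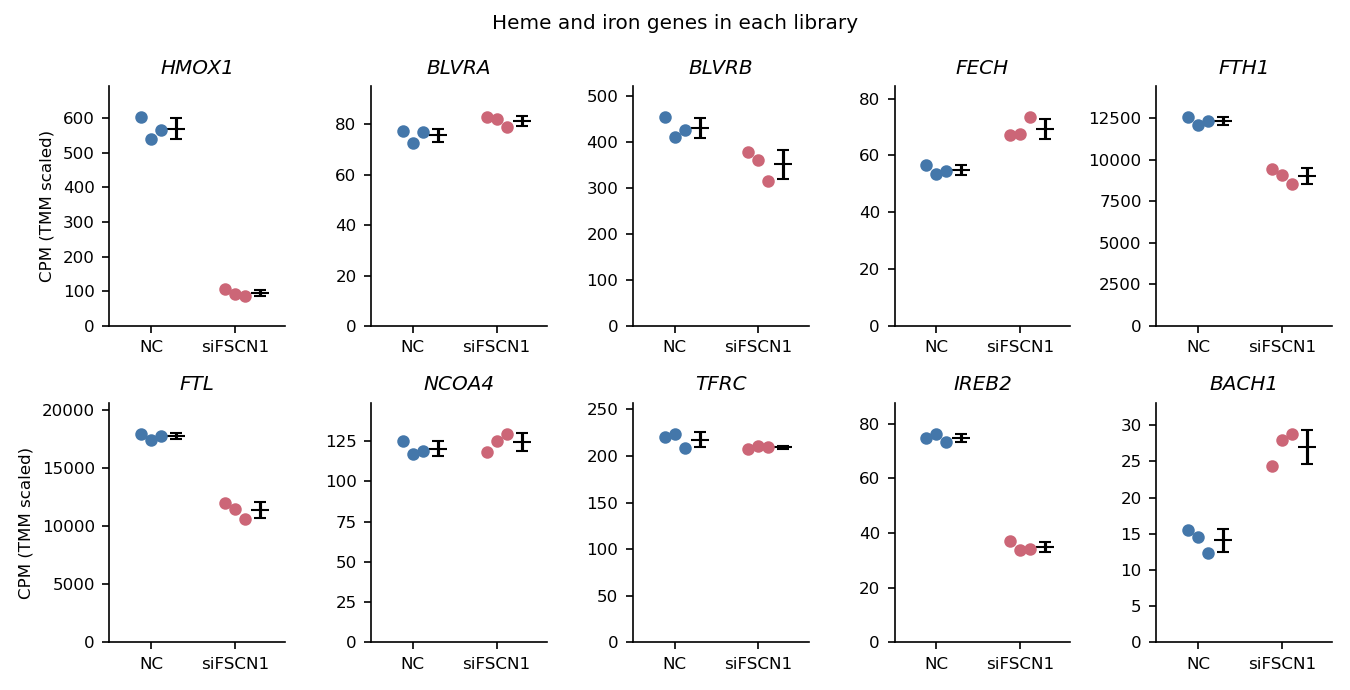
CPM after TMM scaling (y axis, from 0) of the 10 heme and iron genes in each of the 3 NC libraries (blue) and 3 siFSCN1 libraries (red); black marks give the mean ± SD of each group. HMOX1 and IREB2 lie far below their NC values, BACH1 and FECH above them, and TFRC and NCOA4 overlap between groups.

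HMOX1 (ENSG00000100292.18, GRCh38 chromosome 22, 35380361 to 35394214, plus strand) showed the widest gap between groups. Its level was 602.0, 540.2 and 566.5 CPM in NC replicates 1 to 3 and 105.2, 90.8 and 87.7 CPM in siFSCN1 replicates 1 to 3. Every siFSCN1 library lay far below every NC library. The means were 570 CPM ± 31.0 (SD, n = 3) and 94.6 CPM ± 9.35 (SD, n = 3), so that 16.6% of the NC level remained, a log2 fold change of -2.59. In bulk RNA, fewer cells that express a gene and less of its RNA per cell cannot be told apart. Among 5318 tested genes with a mean of at least 5 FPKM, HMOX1 had the 4th lowest log2 fold change, between AC004057.1 (-2.69) and ATP5F1D (-2.54).

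The constitutive isoenzyme HMOX2, which carries out the same reaction, was measured at 63.9, 58.8 and 56.3 CPM in NC and 46.0, 46.0 and 45.3 CPM in siFSCN1. It fell by 0.38 on the log2 scale (SE 0.054, adjusted p = 4.9e-06, edgeR). Per length, the FPKM of HMOX1 was 14.0 ± 0.664 (SD, n = 3) times that of HMOX2 in NC and 3.02 ± 0.284 (SD, n = 3) times in siFSCN1, so HMOX1 remained the more abundant heme oxygenase transcript in every library.

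The genes of the biliverdin reductases differed from each other. BLVRB (ENSG00000090013.11, chromosome 19, 40447765 to 40465764) was measured at 453.9, 411.6 and 426.2 CPM in NC and 377.8, 360.7 and 315.4 CPM in siFSCN1, with all 3 siFSCN1 values below all 3 NC values. It fell by 0.29 on the log2 scale (SE 0.054, adjusted p = 9.8e-05, edgeR). BLVRA (ENSG00000106605.11, chromosome 7, 43758680 to 43807342) was measured at 77.4, 72.6 and 76.9 CPM in NC and 82.8, 81.9 and 78.9 CPM in siFSCN1. The groups did not overlap, but the log2 fold change of 0.10 (95% interval 0.01 to 0.20) did not pass (adjusted p = 0.056, edgeR). BLVRA passed in 7 of 17 settings, with values of up to 0.29 with library totals (adjusted p = 1.2e-05). BLVRB passed in 13 of 17, and not with library totals (-0.11, adjusted p = 0.055), either limma fit on FPKM (-0.13 in both) or the abundance trend removed. The ratio of BLVRA to BLVRB in FPKM was 0.156 ± 0.0043 in NC and 0.206 ± 0.014 in siFSCN1 (SD, n = 3 each). The ratio was higher in each siFSCN1 library than in any NC library, and the exact permutation test (two-sided) gave p = 0.1, which is the minimum for groups of 3.

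The ferritin chains were among the most abundant transcripts of these cells. By mean FPKM over the 6 libraries, FTL ranked 5th and FTH1 11th of 29899 genes. FTL (ENSG00000087086.15, chromosome 19, 48965309 to 48966879, plus strand) was measured at 17922, 17428 and 17762 CPM in NC and 11990, 11449 and 10634 CPM in siFSCN1. FTH1 (ENSG00000167996.16, chromosome 11, 61959718 to 61967634, minus strand) was measured at 12553, 12106 and 12358 CPM in NC and 9431, 9092 and 8522 CPM in siFSCN1. All siFSCN1 values of both chains were below all NC values. FTL fell by 0.64 on the log2 scale (SE 0.048, adjusted p = 1.4e-09, edgeR), to 64.2% of NC, and FTH1 fell by 0.45 (SE 0.046, adjusted p = 7.5e-08, edgeR), to 73.1% of NC.

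Abundant transcripts as a whole were lower in siFSCN1. Of the 320 tested genes with a mean of at least 100 FPKM, 81.9% were lower at an adjusted p under 0.05 and 7.5% were called lower, with a median log2 fold change of -0.41. FTH1 lay close to that median. When the trend of fold change with abundance was removed, the log2 fold change was -0.04 for FTH1 (adjusted p = 0.50) and -0.0015 for BLVRB (adjusted p = 0.98), while FTL stayed below its trend at -0.21 (adjusted p = 0.00078), all from edgeR. In the same setting BLVRA was at 0.28 (adjusted p = 3.1e-05), NCOA4 at 0.26 (adjusted p = 7.0e-05) and TFRC at 0.20 (adjusted p = 0.00019), above the trend.

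**Figure D2:**
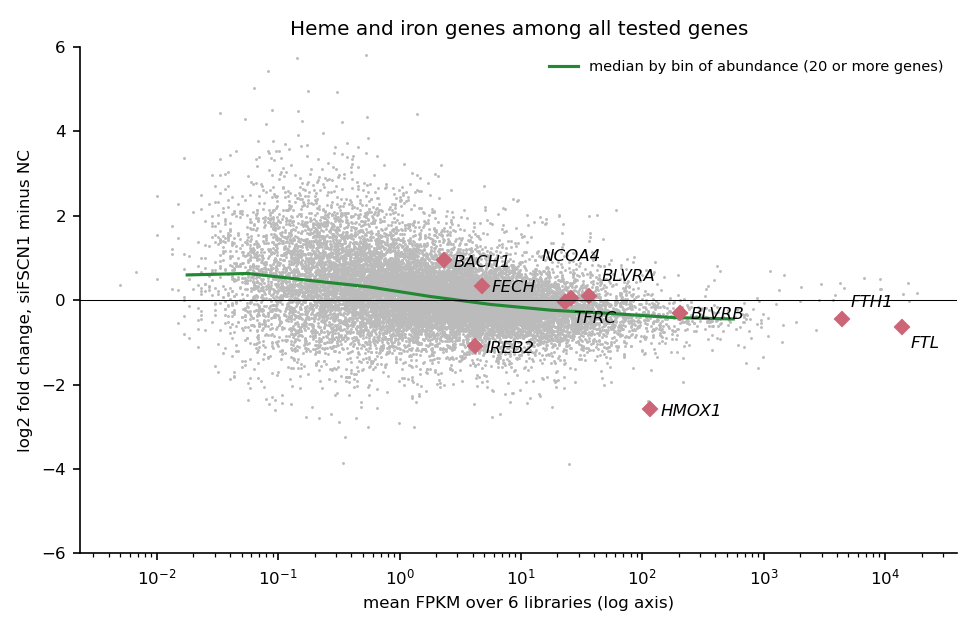
Log2 fold change of siFSCN1 minus NC (y axis) against the mean FPKM over the 6 libraries (x axis, log scale) for all tested genes (grey), with the 10 heme and iron genes as red diamonds and the median of bins of abundance in green; 2 genes lie beyond the plotted range. The green line falls with abundance, FTH1 and BLVRB lie near the level of the abundant genes, and HMOX1 lies far below it.

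The ferritin genes together took 2.84%, 2.78% and 2.82% of all counts in NC and 2.26%, 2.19% and 2.07% in siFSCN1. The mean share was 2.82% ± 0.031 in NC and 2.17% ± 0.094 in siFSCN1 (SD, n = 3 each; exact permutation test, p = 0.1, again the minimum). The balance of the chains also shifted. The ratio of FTH1 counts to FTL counts, which no scaling of the libraries can change, was 0.700, 0.695 and 0.696 in NC and 0.787, 0.794 and 0.801 in siFSCN1. The gap between the groups was wider than the range within either of them, and the exact permutation test gave p = 0.1. In FPKM the ratio was 0.303 ± 0.0013 in NC and 0.345 ± 0.0032 in siFSCN1 (SD, n = 3 each). The level of this ratio depends on the gene length used, since the annotated exons of FTH1 cover 2004 bases and its canonical transcript 1203, while both are 871 bases for FTL. Per canonical transcript the ratio was 0.505 in NC and 0.575 in siFSCN1.

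Both chains have many processed pseudogenes. The 16 FTH1 pseudogenes in the deposited counts summed to between 0.223% and 0.301% of the FTH1 count in each library, and the 4 FTL pseudogenes to between 0.0167% and 0.0228% of the FTL count. Of these 20 genes, 10 were tested, and 6 were lower and none higher at an adjusted p under 0.05 in edgeR. Over all genes, 33.2% were lower and 35.1% higher. FTLP14 was the 1 pseudogene called lower, at a log2 fold change of -1.07, against 4.85% of all genes called lower. Reads shared between FTH1 or FTL and these copies were left out by the authors' use of uniquely mapped reads, so the ferritin levels are uncertain by an amount that the files do not show.

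**Figure D3:**
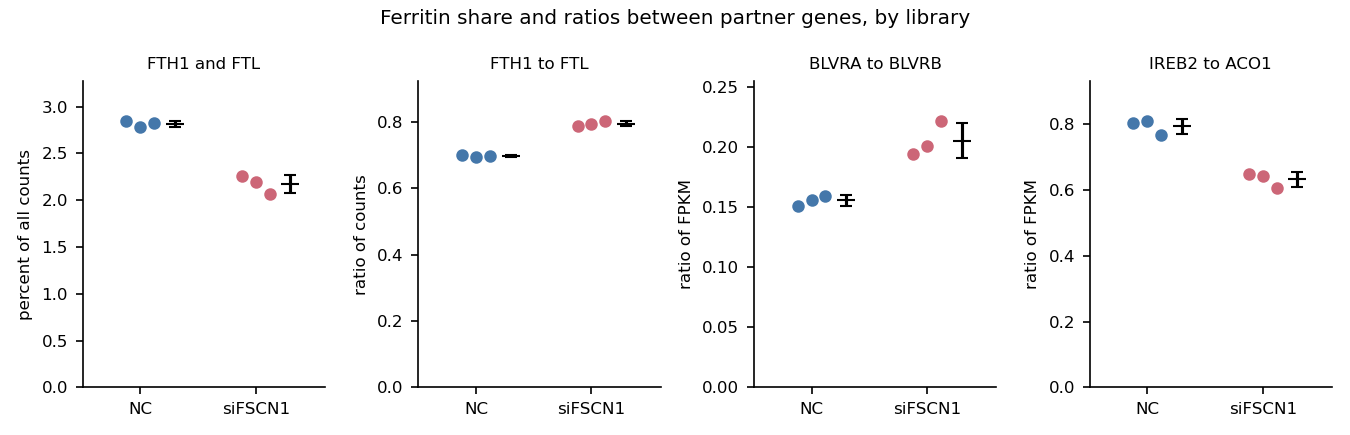
From left to right: the percent of all counts taken by FTH1 and FTL, the ratio of FTH1 to FTL counts, the ratio of BLVRA to BLVRB in FPKM and the ratio of IREB2 to ACO1 in FPKM, in 3 NC (blue) and 3 siFSCN1 (red) libraries, with mean ± SD in black and axes from 0. In each panel the groups do not overlap: the ferritin share and the IREB2 ratio are lower in siFSCN1 and the other 2 ratios higher.

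Iron-responsive elements place ferritin and the transferrin receptor under the same pair of proteins. They are shown here because FTL fell while TFRC, with 4 matches in the search below, did not pass the test. Canonical transcripts were searched for a bulged C, any 5 bases, the loop CAGTGN and 5 bases that pair with the first 5, 17 bases in all. A match was found in 20 of 19035 5′ UTRs (0.105%) and in 122 of 19535 3′ UTRs (0.625%). FTL had a match in its 5′ UTR and TFRC had 4 in its 3′ UTR. FTH1, SLC40A1 and ALAS2 also had a match in the 5′ UTR, and TF in the 3′ UTR. The matches of FTL and TFRC are printed 5′ to 3′ in the sense of the mRNA with flanking bases, from GENCODE v44 transcripts on GRCh38, and the capitals mark the loop:
FTL chr19:48965335-48965363: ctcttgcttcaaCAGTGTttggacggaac
TFRC chr3:196050979-196051007: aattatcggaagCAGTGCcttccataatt
TFRC chr3:196050575-196050603: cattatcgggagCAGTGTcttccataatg
TFRC chr3:196050510-196050538: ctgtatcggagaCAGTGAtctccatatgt
TFRC chr3:196050463-196050491: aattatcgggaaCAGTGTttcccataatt

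Elements at the start of an mRNA, as in FTL, are known to govern its translation, and those in the 3′ UTR of TFRC the stability of that mRNA. TFRC (ENSG00000072274.13 in the deposited counts) brings transferrin-bound iron into the cell. GENCODE v44 holds a later version of this gene model, at chromosome 3, 196012511 to 196082153 on the minus strand, so the counted model may have other ends. It was measured at 220.0, 223.7 and 208.1 CPM in NC and 207.5, 210.4 and 209.9 CPM in siFSCN1, with overlapping groups. The log2 fold change was -0.05 (95% interval -0.13 to 0.03, adjusted p = 0.23, edgeR). Its sign turned under other scalings, for example to 0.13 with library totals, a scaling that moved the median of all genes to 0.22, and it passed in 4 of 17 settings. Relative to the median of all genes TFRC was at -0.08 in both.

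NCOA4 (ENSG00000266412.6, chromosome 10, 46005088 to 46030623), the receptor that delivers ferritin to lysosomes, was measured at 125.4, 116.7 and 118.7 CPM in NC and 118.3, 124.8 and 129.6 CPM in siFSCN1. The groups overlapped, and the log2 fold change was 0.05 (95% interval -0.05 to 0.14, adjusted p = 0.36, edgeR). NCOA4 passed in 5 of 17 settings, for example at 0.24 with library totals (adjusted p = 0.00017). The intervals of TFRC and NCOA4 leave out any 2-fold change.

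IREB2 (ENSG00000136381.13, chromosome 15, 78437431 to 78501453), which encodes iron regulatory protein 2, had the largest change in the edgeR fit among the 9 genes other than HMOX1. The change of BACH1 was larger with upper quartile scaling, library totals and both limma fits on FPKM. IREB2 was measured at 74.7, 76.3 and 73.2 CPM in NC and 37.03, 33.64 and 34.28 CPM in siFSCN1, with each siFSCN1 value far below the NC values. The means were 74.7 ± 1.57 and 35.0 ± 1.80 CPM (SD, n = 3 each), so that 46.8% of the NC level remained, a log2 fold change of -1.09 (SE 0.052, adjusted p = 2.4e-12, edgeR). The 2-fold threshold lies just inside its 95% interval of -1.20 to -0.98. IREB2 was at -0.98 with upper quartile scaling, -0.91 with library totals, -0.91 and -0.74 with limma on log2(FPKM + 0.1) and log2(FPKM + 1), and -0.95 with the trend of abundance removed, and was then not called, although the adjusted p stayed under 0.05.

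ACO1 encodes iron regulatory protein 1, which is also the cytosolic aconitase. It was measured at 65.0, 66.1 and 66.8 CPM in NC and 39.9, 36.6 and 39.6 CPM in siFSCN1, and fell by 0.77 on the log2 scale (SE 0.051, adjusted p = 2.3e-10, edgeR). The ratio of IREB2 to ACO1 in FPKM went from 0.792 ± 0.023 in NC to 0.632 ± 0.023 in siFSCN1 (SD, n = 3 each; exact permutation test, p = 0.1). FBXL5, the iron-sensing subunit of the ligase that degrades iron regulatory protein 2, fell by 0.27 on the log2 scale (SE 0.054, adjusted p = 0.00022, edgeR), from 30.9 CPM ± 1.65 to 25.5 CPM ± 1.05 (SD, n = 3 each). FBXL5 did not pass with library totals (-0.088, adjusted p = 0.17) or in the limma fits on FPKM (-0.11 and -0.092).

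BACH1 (ENSG00000156273.16, chromosome 21, 29194071 to 29630751, plus strand), the repressor of HMOX1 and ferritin, rose. It was measured at 15.5, 14.5 and 12.3 CPM in NC and 24.4, 27.9 and 28.8 CPM in siFSCN1, with every siFSCN1 value above every NC value. The means were 14.1 ± 1.62 and 27.0 ± 2.35 CPM (SD, n = 3 each), 1.92-fold apart, a log2 fold change of 0.94 (SE 0.082, adjusted p = 9.7e-09, edgeR). Since this is just under 2-fold, BACH1 was not called. It was called at 1.06 with upper quartile scaling, at 1.13 with library totals and at 1.01 without NC replicate 1. With limma on log2(FPKM + 0.1) it was also called, at 1.06. On the opposite strand, exons of GRIK1 overlap those of BACH1, and LINC00189 overlaps it on the same strand, so its count is uncertain to that extent. FTH1 and TFRC have such an overlap on the opposite strand with BEST1 and ENSG00000286168.

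NFE2L2, the gene of NRF2, rose by 0.22 on the log2 scale (SE 0.051, adjusted p = 0.00092, edgeR), from 88.4 CPM ± 3.84 to 103 CPM ± 6.57 (SD, n = 3 each). KEAP1 was measured at 124.8, 121.4 and 118.7 CPM in NC and 107.7, 103.6 and 108.0 CPM in siFSCN1, a log2 fold change of -0.19 (SE 0.041, adjusted p = 0.00047, edgeR). KEAP1 did not pass with upper quartile scaling (-0.075), library totals (-0.0052), either limma fit on FPKM (-0.027 and -0.026) or the trend of abundance removed (0.011), with adjusted p of 0.12 to 0.92.

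FECH (ENSG00000066926.13, chromosome 18, 57544377 to 57586732, minus strand), which inserts iron into protoporphyrin to form heme, was measured at 56.8, 53.4 and 54.4 CPM in NC and 67.2, 67.4 and 73.4 CPM in siFSCN1. It rose in every siFSCN1 library above all NC libraries, by 0.34 on the log2 scale (SE 0.051, adjusted p = 1.2e-05, edgeR). ALAS1, which makes the first committed intermediate of heme, moved the other way. It was measured at 96.3, 100.5 and 95.3 CPM in NC and 63.1, 67.5 and 63.4 CPM in siFSCN1, and fell by 0.59 on the log2 scale (SE 0.046, adjusted p = 2.4e-09, edgeR).

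Since BACH1 and NRF2 act through DNA elements, the promoters of the members were searched for them. RefSeq promoters on GRCh38.p14, 250 bases before to 50 after each start, were scanned on both strands for the core of the NRF2 element, TGACNNNGC, and for TGAGTCA, an AP-1 type element. The first was found in 13.3% and the second in 4.95% of 35116 promoters. Of the 8 members with an entry, FECH and NCOA4 held the first and BACH1 the second, while HMOX1 and FTH1 had no entry. BACH1 had 3 entries and IREB2 and NCOA4 had 2 each. The shares above count single promoters, so they cannot be set directly beside the count of members. In NCOA4 the match lay 23 bases after a start. The match of BACH1 lay 48 bases before a start. That of FECH lay 38 bases before its RefSeq start and on the reverse strand. In GENCODE v44 the FECH gene begins at 57586732, at the edge of the match. These matches, of the 2 members that rose, are shown in the direction of the gene with the match in capitals:
BACH1 chr21:29298864-29298890: gcggaaggagTGAGTCAcctgaccgct
FECH chr18:57586722-57586750: ccgggagggcGCGAGGTCAgggggctggg
A match of letters does not show that a factor binds there.

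**Figure D4:**
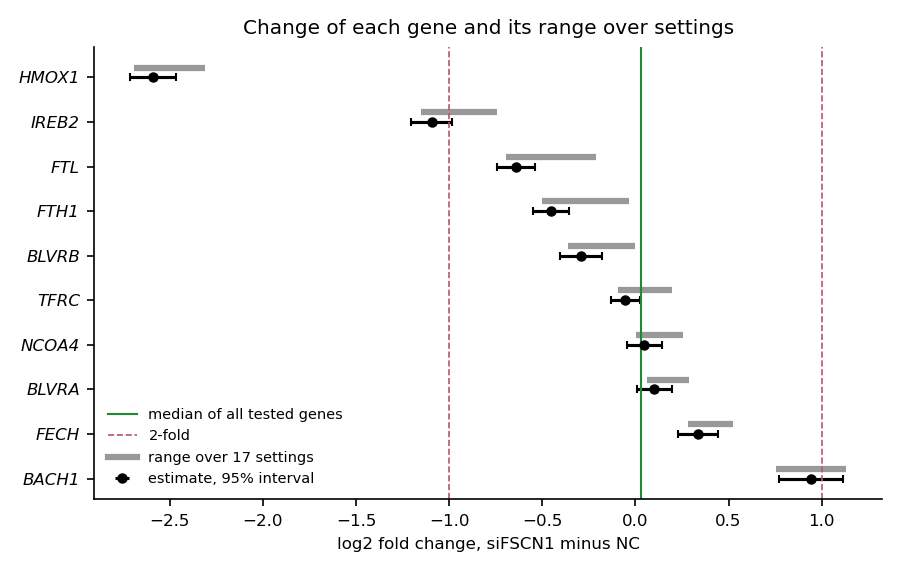
Log2 fold change of siFSCN1 minus NC (x axis) of each of the 10 genes from edgeR, with its 95% interval (black) and the lowest to highest value over 17 settings (grey bar); the green line is the median of all tested genes and the dashed lines mark 2-fold. HMOX1, whose interval and bar describe the values it was chosen by, lies beyond 2-fold in each setting. The bars of IREB2 and BACH1 cross the 2-fold line.

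Levels between the genes were compared in FPKM, that is, per length. In NC the order was FTL (16160 FPKM), FTH1 (4895), BLVRB (212), HMOX1 (196), BLVRA (33.03), NCOA4 (24.0), TFRC (22.2), IREB2 (5.50), FECH (3.92) and BACH1 (1.46), and in this order only BLVRB and HMOX1 overlapped between neighbours. In siFSCN1 the order was FTL (11639 FPKM), FTH1 (4015), BLVRB (194), BLVRA (39.8), HMOX1 (36.6), NCOA4 (27.8), TFRC (24.0), FECH (5.56), BACH1 (3.15) and IREB2 (2.89). There HMOX1 overlapped with BLVRA, and BACH1 with IREB2. By FPKM, HMOX1 thus moved from the level of BLVRB to that of BLVRA, and IREB2 from above FECH and BACH1 to the lowest place. These places depend on the gene length used. Annotated exons cover 1613 bases for BLVRB and 2306 for HMOX1, and their canonical transcripts 799 and 1554. For IREB2 these lengths are 10803 and 6324, and for BACH1 7666 and 5618. The order per canonical transcript was not computed.

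The wider pathway was described with 6 lists that held 103 genes beside the members. Of the 96 genes tested, 27 (28.1%) were higher, 51 (53.1%) lower and 18 did not pass at an adjusted p under 0.05 in edgeR. Over all genes, 35.1% were higher and 33.2% lower, which are also the shares to set beside the list counts below. Of the 96, 9 (9.38%) were called, 6 higher and 3 lower, against 16.5% of all genes. The median log2 fold change was -0.18, against 0.03 over all genes. Apart from values with the abundance trend removed, the list values were not adjusted for abundance. Abundant genes as a whole were lower in siFSCN1.

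In heme synthesis, 4 of 14 genes were higher and 10 lower, none was called, and the median was -0.29. CPOX fell by 0.73, TMEM14C, which helps a heme precursor into the mitochondrial matrix, by 0.70 and UROD by 0.53 on the log2 scale. PPOX rose by 0.50 and UROS by 0.25. Enzymes of the same short pathway thus moved in both directions.

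In heme degradation, transport and binding, 3 of 12 genes were higher, 6 lower and 3 did not pass, with a median of -0.08. SLC46A1, a transporter of folate and heme, fell by 0.62 and PGRMC2, a heme chaperone, rose by 0.46 on the log2 scale. HPX, the heme scavenger hemopexin, was the single called gene, at under 1 FPKM in both groups.

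In iron uptake, storage and export, 7 of 16 genes were higher, 7 lower and 2 did not pass, with a median of -0.02, and 4 further genes were too low to test. Within it were the largest changes of the lists among genes with at least 1 FPKM. CP, the ferroxidase ceruloplasmin that oxidises exported iron, was measured at 22.5, 17.7 and 21.9 CPM in NC and 95.3, 92.9 and 93.6 CPM in siFSCN1, a log2 fold change of 2.18 (SE 0.069, adjusted p = 1.3e-14, edgeR). SLC40A1, the iron exporter ferroportin, rose by 0.46 (SE 0.052, adjusted p = 3.5e-07, edgeR), from 35.9 CPM ± 1.05 to 49.4 CPM ± 2.04 (SD, n = 3 each). SLC39A14, an importer of iron not bound to transferrin, was measured at 108.8, 114.6 and 112.7 CPM in NC and 35.5, 32.9 and 37.3 CPM in siFSCN1, a log2 fold change of -1.67 (SE 0.052, adjusted p = 1.2e-14, edgeR). STEAP3, the reductase that prepares endosomal iron for transport, fell by 1.04 on the log2 scale (SE 0.055, adjusted p = 1.1e-11, edgeR). The iron chaperones PCBP1 and PCBP2, which load ferritin, fell by 0.49 and 0.37. The fall of STEAP3 was under 2-fold with upper quartile scaling (-0.92), library totals (-0.86), limma on log2(FPKM + 0.1) (-0.87) and log2(FPKM + 1) (-0.80), and the abundance trend removed (-0.88). TF, called higher, was under 1 FPKM in both groups.

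Among the regulators, 6 of 17 genes were higher, 5 lower and 6 did not pass, with a median of -0.05. NR1D2, a heme-binding nuclear receptor, rose from 6.89 CPM ± 0.630 to 18.6 CPM ± 1.28 (SD, n = 3 each), a log2 fold change of 1.43 (SE 0.10, adjusted p = 6.8e-10, edgeR), and of 0.99 with limma on log2(FPKM + 1). BACH2, a relative of BACH1, was called higher at under 1 FPKM. The small MAF genes that pair with BACH1 and NRF2 did not show a 2-fold change, with log2 fold changes of -0.06 for MAFF, -0.05 for MAFG and -0.14 for MAFK.

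In iron-sulfur cluster assembly, 4 of 24 genes were higher, 17 lower and 3 did not pass, and the median of -0.35 was the lowest of the 6 lists. The part of the abundance trend in this median was not tested. CIAPIN1, a cytosolic assembly factor, was measured at 114.8, 112.9 and 108.9 CPM in NC and 59.1, 53.6 and 53.6 CPM in siFSCN1, and fell by 1.02 on the log2 scale (SE 0.049, adjusted p = 3.0e-12, edgeR). It was below 2-fold in 7 of the 16 other settings. CIAO2B fell by 0.95 and ISCA2 by 0.77, while the scaffold gene ISCU rose by 0.22.

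Other genes with NRF2 or BACH1 elements moved in both directions. Of 13, 3 were higher, 6 lower and 4 did not pass, with a median of -0.06. The glutamate-cysteine ligase subunits GCLC and GCLM fell by 0.89 and 0.59, NQO1 by 0.58 and SQSTM1 by 0.72 on the log2 scale. SLC7A11, the cystine transporter, was measured at 119.5, 123.6 and 125.5 CPM in NC and 234.9, 244.7 and 264.6 CPM in siFSCN1 and rose by 1.01 on the log2 scale (SE 0.045, adjusted p = 8.1e-13, edgeR). The rise was just under 2-fold with RLE scaling (0.996), in DESeq2 (0.98), without NC replicate 1 (0.98) and without siFSCN1 replicate 3 (0.95). ME1 rose by 0.61. TXNRD1 (-0.06), SRXN1 (0.03), OSGIN1 (-0.06) and AKR1B10 (0.0015) did not pass. The lowest log2 fold change of the 13 was -0.89. HMOX1 was chosen by its fall, so its place below all 13 follows from that choice and is no result about them.

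**Figure D5:**
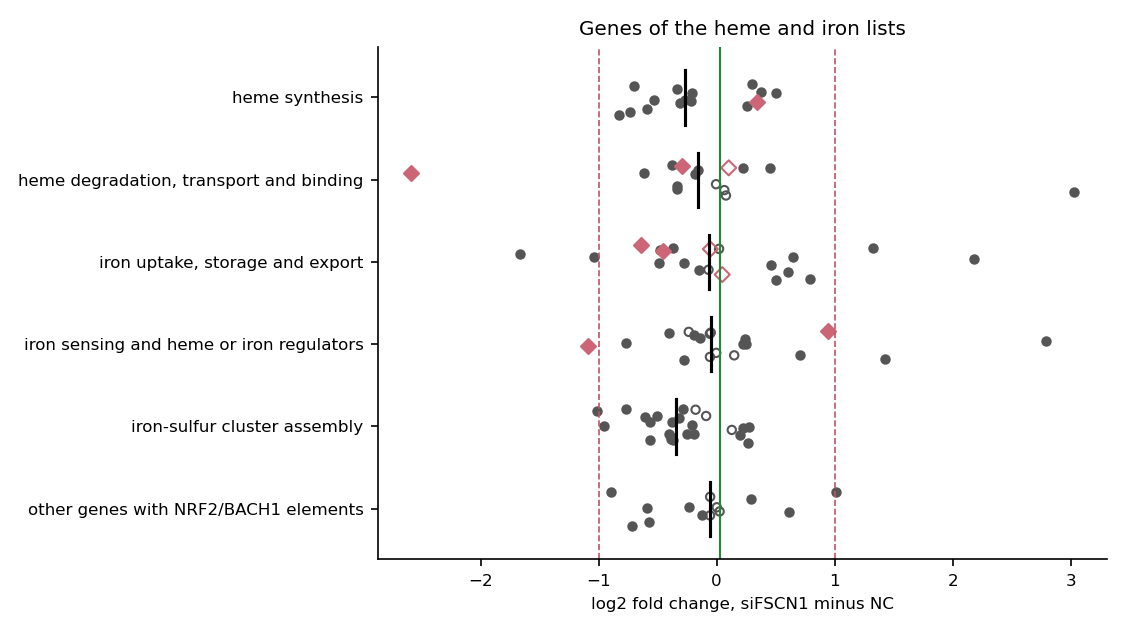
Log2 fold change of siFSCN1 minus NC (x axis) of the tested genes of 6 lists (rows). Red diamonds are the 10 members, grey circles the other genes, filled symbols passed an adjusted p of 0.05, black bars are the medians of each list with its members, the green line is the median of all genes and the dashed lines mark 2-fold. HMOX1 lies apart at -2.59, and most genes of iron-sulfur cluster assembly lie to the left of the green line.

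The genes whose pattern over the 6 libraries was most like that of HMOX1 were found among 5317 others with a mean of at least 5 FPKM, by the root mean square difference of log2 CPM after the mean of each gene was taken off. They were ATP5F1D (0.094), GMNN (0.11), NDUFC1 (0.11), RPS26 (0.11) and UBE2Q1 (0.15), against a median of 1.19. ATP5F1D, a subunit of the ATP synthase, went from 86.0 to 14.8 CPM, GMNN, the replication inhibitor geminin, from 58.2 to 10.8 CPM and RPS26, a ribosomal protein gene with many pseudogene copies, from 477 to 90.7 CPM. No member was among the 5, and the nearest member was IREB2 at 0.75. These values describe likeness over 6 libraries that form 2 groups, and mostly rank genes by the size of the same fall.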

How the data were processed

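RNA-seq was deposited for 3 NC and 3 siFSCN1 libraries, grouped by their titles. The authors deposited raw counts per gene (30230 genes) and FPKM (29899 genes) from reads trimmed with FASTX Toolkit 0.0.13, aligned to GRCh38 with HISAT2 according to the methods (the submitters' processing notes name TopHat2 and bcl2fastq), and kept where uniquely mapped. The counting program and its strand setting are not given in the sources used here. FPKM was used to compare levels between genes and in 2 alternatives.

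The members and gene lists were chosen with earlier results of these data known. Named genes were FSCN1, the members, HMOX2, ACO1, NFE2L2, KEAP1, SLC40A1, ALAS1, FBXL5, called list genes with at least 1 FPKM in the higher group, and the 5 genes most like HMOX1. Other list genes named were chosen after their values were seen. Some list genes are counted but not reported by name here.

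Genes were filtered with filterByExpr, counts scaled by TMM and groups compared by quasi-likelihood in edgeR 4.0.16 (R 4.3.3), with Benjamini-Hochberg adjustment over 17076 genes. The authors used DESeq2. Totals of 27967301 to 36560919 counts, with member counts of 382 or more per library, left the spread between libraries as the main error. The study calls the replicates biological, and the labels do not say whether they were separate cultures, so p-values measure the spread between these samples. Libraries of a group differed beyond sampling noise (chi-square per degree of freedom 3.11 to 8.23). Ratios were compared with exact permutation tests. Simulated counts were used to test the fits first.

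Alternatives were RLE, upper quartile and library total scaling, DESeq2 1.42.0, no filter, a filter of 1 CPM in 3 libraries, a block for the replicate number, omission of each library in turn, limma 3.58.1 on log2(FPKM + 0.1) and log2(FPKM + 1), and fold changes less their loess trend over abundance (span 0.3). The FTH1 to FTL ratio per canonical transcript was added after seeing the data. Positions and transcripts were from GENCODE v44, promoters from RefSeq.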

Additional observations from a re-analysis of the deposited data

How the results depend on the processing

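Over 16 alternatives, 146 of 160 values of the 10 genes kept their direction and their side of the call, which needs both 2-fold and an adjusted p under 0.05. HMOX1 kept both in all 16. Since it was chosen by its fall, this and its place in the counts of called members below are a description with no test. Upper quartile scaling, library totals, limma on log2(FPKM + 0.1), limma on log2(FPKM + 1) and removal of the abundance trend turned the sign of TFRC, to 0.065, 0.13, 0.11, 0.11 and 0.20. Upper quartile scaling and library totals moved the median of all genes to 0.15 and 0.22, and the share of called genes that were higher from 70.6% to 78.9% and 83.8%. That share was 80.1% and 60.5% with limma on FPKM with the smaller and larger pseudocount, and 50.7% with the abundance trend removed, which also turned KEAP1 to 0.011. With limma on log2(FPKM + 1), 471 genes were called in all, 1 member and 3 other list genes. With the abundance trend removed, 1 member was called, and with limma on log2(FPKM + 0.1), 5 other list genes. The cause of these changes was not tested.

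When each library was left out in turn, HMOX1 ranged from -2.69 to -2.55, FSCN1 from -4.11 to -3.77, the calls over all genes from 2854 to 3028, called members from 2 to 3, other called list genes from 8 to 10, and the rise in the FTH1 to FTL ratio from 0.041 to 0.044. CIAPIN1 was at -0.9997, just under 2-fold, without siFSCN1 replicate 2. HMOX1 ranged from -2.69 to -2.31 over all alternatives.

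Same-numbered libraries did not deviate together (correlations of -0.03, 0.04 and -0.08), so the numbers were not taken as pairs. A fit with the replicate number as a block called 2827 genes and changed none of the 27 results compared. BACH1 had the lowest counts of the 10 genes, 382 in its lowest library.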
